A study of Mus musculus with 8 samples.

Results

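Smc3 del/+ libraries were set against control libraries to ask what losing 1 of the pair of Smc3 alleles does to open chromatin in blood progenitors. Libraries were chosen by title: 2 Smc3 del/+ and 2 control libraries, 4 of the 8 in the series. The assay was ATAC-seq, in which the Tn5 transposase cuts and tags DNA it can reach, so that peaks of tagged fragments mark open chromatin. Cells were c-Kit+ cells, a bone marrow fraction taken with magnetic beads from individual mice, at 50000 cells per sample and 4 weeks after PIpC.

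Smc3 del/+ mice had an Mx1-Cre transgene and 1 deleted Smc3 allele. Control mice were Smc3 fl/+, with a floxed Smc3 allele but no Mx1-Cre, so the allele and the recombinase differ together in this comparison and cannot be told apart. The Mx1 promoter answers to interferon, PIpC switches it on, and it acts in blood cells and in other tissues. The free-text descriptions of the Smc3 del/+ and Flt3-ITD libraries are exchanged relative to titles and genotype labels, and groups here follow the titles. The labels speak of individual mice but do not tie each library to one, so the spread between libraries may be technical. The comparison is limited to the 19 autosomes.

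Cohesin is a ring built on Smc1a, Smc3 and Rad21 with a Stag subunit. It holds sister chromatids together and, loaded by Nipbl and halted at many sites by Ctcf, extrudes chromatin loops that bring enhancers and promoters near each other. Cohesin genes are recurrently mutated in myeloid malignancies, mostly on a single allele. c-Kit, the receptor for stem cell factor, marks hematopoietic stem and progenitor cells, a mixture of cell types. In such a bulk fraction, fewer cells of a type and less open chromatin per cell cannot be told apart.

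The deposited data are 1 peak list per library, with positions on the mm9 mouse build and a score per peak. No read number comes with them, so the depth behind a peak is unknown, and an mm9 genome or gene annotation was not used. Regions are therefore given by coordinates, with no gene, exon, intron or sequence attached. After repeated intervals were counted once, Smc3 del/+ lists held 59492 and 60894 autosomal peaks and control lists 71621 and 62211. Regions that a single one of these libraries called numbered 4732 and 5325 in Smc3 del/+ replicates 1 and 2, against 9552 and 5081 in control replicates 1 and 2, so control replicate 1, with the longest list, stood apart.

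Smc3 del/+ lists held fewer peaks than control lists, but broader ones. Peaks numbered 60193 ± 991 in Smc3 del/+ and 66916 ± 6654 in control (SD, n = 2 each), a mean 10.0% lower with no overlap between the genotypes. The size of the difference rested largely on control replicate 1. It was -6723 peaks with all 4 libraries, -2018 without control replicate 1 and -11428 without control replicate 2. Bases covered overlapped, at 35.5 ± 0.480 Mb in Smc3 del/+ and 35.1 ± 3.33 Mb in control (SD, n = 2 each). Median peak width was 435 and 432 bp in the Smc3 del/+ libraries, against 409 bp in each control library. Flt3-ITD lists also had fewer peaks on average than control, at 62986 ± 2042 (SD, n = 2), and greater median widths, at 423 and 425 bp. Smc3-deleted Flt3-ITD lists did not, at 77872.5 ± 344 peaks (SD, n = 2) and 405 and 407 bp. Fewer and broader peaks were thus not particular to Smc3 del/+. With 2 libraries against 2, an exact two-sided permutation test cannot give a p below 0.33, so no single measure can pass a test in this comparison.

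Peak widths fell into 2 classes, one centred near 400 bp and one near 1 kb, and the genotypes differed in how peaks were divided between them. A limit of 700 bp, set in the trough between the classes after the widths were seen, called 17424 and 17441 peaks broad in Smc3 del/+ and 14729 and 13191 in control. Broad peaks made up 29.0% ± 0.457 of Smc3 del/+ lists and 20.9% ± 0.451 of control lists (SD, n = 2 each). The share was 26.2% ± 0.116 in Flt3-ITD lists, also above control, and 20.1% ± 0.523 in Smc3-deleted Flt3-ITD lists (SD, n = 2 each). Narrow peaks numbered 42068 and 43453 in Smc3 del/+, against 56892 and 49020 in control.

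**Figure D1:**
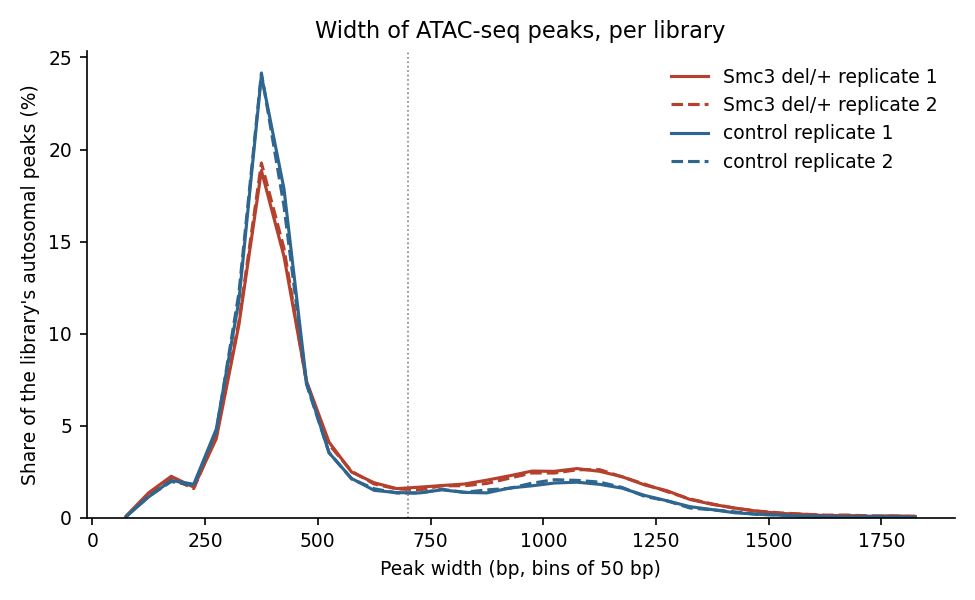
Share of each library's autosomal peaks (vertical axis, %) by peak width in bins of 50 bp (horizontal axis, bp), with 1 line per library and a dotted line at 700 bp. Both Smc3 del/+ lines lie below both control lines at the narrow peak near 400 bp and above them around 1 kb, and the 2 lines of a genotype nearly coincide.

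Within each class the widths differed less. Narrow peaks had a median width of 389 ± 0 bp in Smc3 del/+ and 385.5 ± 0.707 bp in control, and broad peaks 1053.75 ± 6.01 bp in Smc3 del/+ and 1032.5 ± 3.54 bp in control (SD, n = 2 each). When all lists were cut to 59492 peaks by score and then width, the broad share was 8.53 percentage points higher in Smc3 del/+. Sequencing depth, fragment length and peak caller settings are unknown here, and their part in peak width was not tested.

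Merging the 4 lists where peaks overlapped by at least 1 bp gave 89620 autosomal regions, and a library called a region where it had a peak. Shared regions, with a peak in each of the 4 libraries, numbered 39040 (43.6%), and 24690 were called in a single library. Shared regions held 68.9% and 67.2% of the Smc3 del/+ peaks and 57.4% and 65.9% of the control peaks in replicates 1 and 2. Bases covered overlapped only in part even between libraries of 1 genotype. The Jaccard index, bases in common over bases in either list, was 0.348 between the Smc3 del/+ libraries and 0.36 between the control libraries, and 0.33 to 0.332 over the 4 pairs across genotypes. Lists of different genotypes thus overlapped nearly as much as lists of the same genotype.

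A region was gained when both Smc3 del/+ libraries and no control library called it, and lost in the reverse case, among the 58385 regions that both libraries of at least 1 genotype called, termed compared. Smc3 del/+ cells gained 1991 regions (3.41%) and lost 4944 (8.47%), so 2.48 regions were lost for each gained. A further 12410 regions of those compared were called in 3 libraries, and 6545 regions outside the comparison were called in 1 library of each genotype.

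The excess of losses depended on list length. Equal list length gave 2882 gains and 3429 losses, so that gains made up 45.7% of all changes in place of 28.7%. Among peaks with a score of exactly 1, the highest the lists hold, 441 regions were gained and 2829 lost, but Smc3 del/+ lists had 27.4% ± 0.106 of their peaks at that score and control lists 31.5% ± 0.485 (SD, n = 2 each). Leaving out a library loosens the rule: gains were 8212 and 7658 without Smc3 del/+ replicate 1 and 2, and 5755 and 3720 without control replicate 1 and 2. Losses were then 9003, 9303, 10812 and 15342 in the same order, above the gains in each of these. The rule loosens unequally, however. Without a control library a loss needs a call in 1 library and a gain still needs calls in 2, and without a Smc3 del/+ library the reverse holds. The sizes of the excess in these settings are therefore not comparable with each other or with the full rule. With the libraries titled Flt3-ITD in place of Smc3 del/+, as the free-text descriptions would have it, 2956 regions were gained and 4930 lost. By title this sets Flt3-ITD against the same control libraries, so an excess of losses was not particular to Smc3 del/+.

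**Figure D2:**
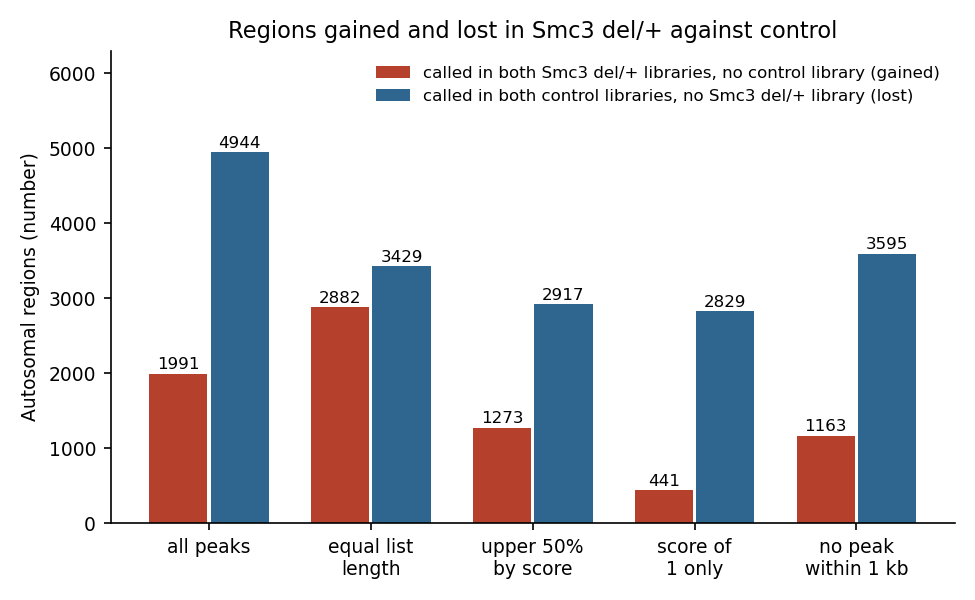
Number of autosomal regions (vertical axis) gained and lost in Smc3 del/+ against control, with all peaks, lists cut to equal length, the 50% of peaks that scored highest, peaks with a score of 1, and all peaks with regions removed where the other genotype had a peak within 1 kb. Lost regions outnumber gained ones in each setting, by the least with lists of equal length (2882 gained, 3429 lost).

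Gained and lost regions had low scores within their lists. Gained regions had a median score percentile of 24.5 and 26.4 in the Smc3 del/+ libraries, and lost regions 28.5 and 23.4 in control replicates 1 and 2. Median percentiles of shared regions were 63.7 and 64.5 in Smc3 del/+ and 84.4 and 65.1 in control. A score of 1 in every library that called the region was found for 143 of the 1991 gained regions (7.18%) and 193 of the 4944 lost regions (3.90%), against 12726 of the 39040 shared regions (32.6%). Peaks in changed regions were not unusual in width: median widths were 420 and 422 bp at gained regions in Smc3 del/+ and 415 bp at lost regions in each control library.

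The 10 gained and 10 lost regions ranked highest by score had a score of 1 in both calling libraries, so peak width decided their order. The first gained region lay at chr7:29159664-29161258, with peaks of 1302 and 1580 bp in Smc3 del/+ and none in control, also none within 1 kb. Both Flt3-ITD libraries called it and neither Smc3-deleted Flt3-ITD library did. The region at chr16:20620745-20622089 had peaks of 1305 and 1219 bp in Smc3 del/+, and each control library had one near it, less than 1 kb away. Of the 10 gained regions, 9 had a control peak within 1 kb, and the exception is that on chromosome 7.

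Of the 10 lost regions, 6 had a Smc3 del/+ peak within 1 kb. The region at chr5:134788958-134790212, ranked first, had peaks of 1237 and 1255 bp in control, and each Smc3 del/+ library had a peak less than 1 kb away. By contrast, chr13:20012937-20014038, with peaks of 1091 and 917 bp in control, had no Smc3 del/+ peak within 1 kb, and both Smc3-deleted Flt3-ITD libraries called it. At chr13:110022055-110023121 the control peaks were 357 and 1067 bp wide, no Smc3 del/+ library had a peak within 1 kb, and all 4 libraries with Flt3-ITD called the region.

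Part of the changed calls lay beside a peak of the other genotype. The same shares were not computed for other regions. Control lists were longer and so held more peaks that could lie near a gained region, so the gained and lost shares are not directly comparable. Within 1 kb of 595 gained regions (29.9%) there was a peak in each control library, and near 1163 (58.4%) there was none in either. Within 1 kb of 835 lost regions (16.9%) there was a peak in each Smc3 del/+ library, and near 3595 (72.7%) there was none in either. Where a region with such a neighbour was not counted, 1163 gains and 3595 losses were left, and the gained share was 24.4%.

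Part of the gained calls sat directly next to a lost call. Of the 1991 gained regions, 281 (14.1%) had a lost region within 1 kb, with a median gap of 51 bp between them, although the median distance from a gained region to the nearest lost one was 112189 bp. Such side-by-side calls also occurred between replicates. A region of Smc3 del/+ replicate 1 alone had one of replicate 2 alone within 1 kb in 285 of 4732 cases (6.02%), with a median gap of 105 bp, and a region of control replicate 2 alone had one of control replicate 1 alone in 613 of 5081 (12.1%), with a median gap of 78 bp. In the reverse directions the shares were 5.66% for lost regions, 5.41% for Smc3 del/+ replicate 2 alone and 6.45% for control replicate 1 alone. Such shares depend on the number of partner regions, so they are not directly comparable.

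At long range, gained regions were more often far from any shared region than lost ones. The median distance to the nearest shared region was 8685 bp for gained and 7139 bp for lost regions, and 5709 bp from one shared region to the next. The order of the medians turned without Smc3 del/+ replicate 2, at 5926 bp for gained and 6241 bp for lost regions. It also turned without control replicate 2, at 6122.5 and 6750 bp. Leaving out a library lets a single library call a region for its genotype and redefines the shared regions. The sets then differ from the full ones, so whether the order rests on a single library was not settled. Beyond 100 kb from any shared region lay 207 gained regions (10.4%) and 207 lost regions (4.19%), and the exact 95% intervals of the shares within 100 kb, 88.2% to 90.9% for gained and 95.2% to 96.4% for lost, did not overlap. Regions of a single Smc3 del/+ library lay there in 7.92% of cases and regions of a single control library in 6.28%, so the gained share was above that of single-library calls and the lost share below it. Regions called in 3 libraries had the same order. Of those in both Smc3 del/+ and 1 control library 6.24% lay there, and of those in both control and 1 Smc3 del/+ library 3.90%. The order at long range was thus not particular to gained and lost regions. At the near end the order was also gained above lost: 16.4% of gained regions (95% exact interval 14.8% to 18.1%) and 13.0% of lost regions (12.0% to 13.9%) lay within 1 kb of a shared region, an order that turned among the 50% of peaks with the highest scores, at 6.36% of gained and 6.99% of lost regions, and without control replicate 1, at 14.4% and 16.0%. Regions of a single Smc3 del/+ library lay within 1 kb in 21.8% of cases and those of a single control library in 16.0%. Of the shared regions, 13.3% lay that near the next shared one. The gained share was thus not above that of all single-library calls, and the lost share was near that between shared regions. Intervals cover counting error only, and neighbouring regions are not independent.

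**Figure D3:**
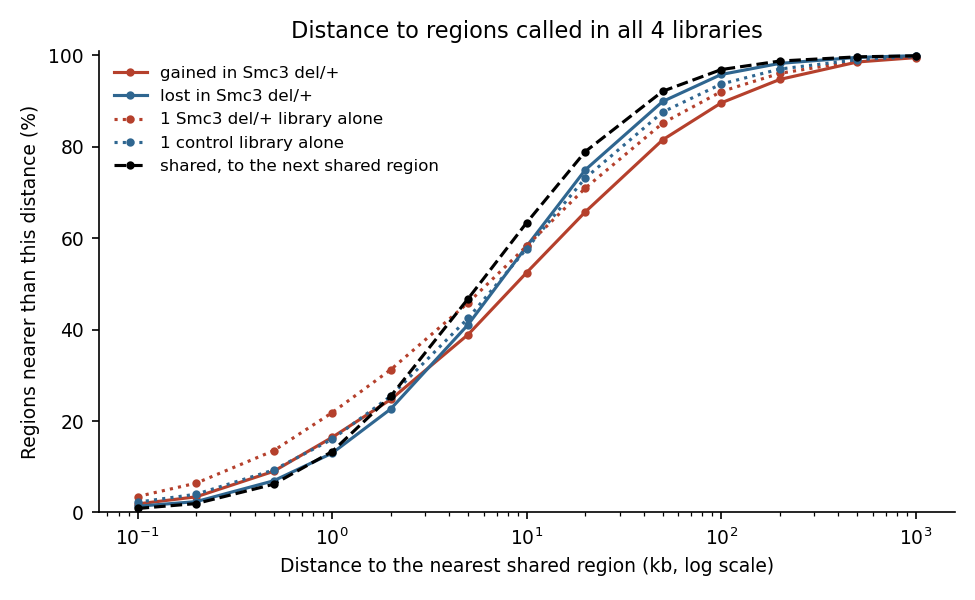
Share of regions (vertical axis, %) whose nearest shared region is closer than the distance on the horizontal axis (kb, log scale), for gained and lost regions, regions called in 1 library alone, and shared regions to the next shared one. The gained line is the lowest from 5 kb to 200 kb and reaches 89.6% at 100 kb, against 95.8% for lost regions.

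The difference at long range held with lists of equal length, where 10.8% of gained and 4.20% of lost regions lay beyond 100 kb, and with the 50% of peaks that scored highest in each list, where 16.3% and 8.60% did. Without control replicate 2 the shares were 6.88% and 4.97%, the closest that leaving out a library brought them, and without control replicate 1 they were 7.40% and 4.97%. Without Smc3 del/+ replicate 1 or 2, gained regions stood at 7.70% and 7.42% and lost regions at 3.21% and 3.71%.

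Gains and losses were also counted in windows of 1 Mb, by how many shared regions each held. In the 675 windows with 0 to 5 shared regions, 191 of 2240 compared regions were gained (8.53%) and 189 lost (8.44%). In the 428 windows with over 30 shared regions, 685 of 25427 were gained (2.69%) and 2126 lost (8.36%). Losses per gain were 0.99 in the sparse and 3.10 in the dense windows, and 0.467 and 1.59 with lists of equal length. Compared regions include the shared ones that define the windows, so the shares themselves cannot be compared between sparse and dense windows, and only losses per gain can.

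The 3 windows of 1 Mb with the most lost regions were all on chromosome 10, although the chromosome as a whole lost 8.42% of its compared regions, near the 8.47% of all autosomes. The window from 20 to 21 Mb held 19 lost and 1 gained of 69 compared regions, and the adjoining window from 19 to 20 Mb held 14 lost and 1 gained of 55. Smc3 del/+ libraries had 56 and 49 peaks from 20 to 21 Mb, against 83 and 76 in control, and 45 and 40 peaks from 19 to 20 Mb, against 69 and 59 in control. The windows were picked for their losses, which are peaks present in control and absent in Smc3 del/+, so these numbers describe them and are no further support. With lists of equal length 12 and 11 regions were still lost in the windows from 20 and from 19 Mb.

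In libraries with Flt3-ITD, the regions lost in these windows were called somewhat more often on average than lost regions in general, though their numbers are small. Of all lost regions, Smc3-deleted Flt3-ITD libraries called 64.1% ± 1.33 and Flt3-ITD libraries 53.9% ± 2.87 (SD, n = 2 each). Of the 19 lost from 20 to 21 Mb, Smc3-deleted Flt3-ITD libraries called 14 and 13 and Flt3-ITD libraries 10 and 13. Of the 14 lost from 19 to 20 Mb, Smc3-deleted Flt3-ITD libraries called 10 and 13 and Flt3-ITD libraries 9 in each. Another window, chromosome 10 from 67 to 68 Mb, held 17 lost and 4 gained of 80 compared regions, with 71 and 68 peaks in Smc3 del/+ and 86 and 83 in control, and 9 lost with equal list length.

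The windows with the most gained regions, of which there were fewer in all, held at most 7. Chromosome 4 from 115 to 116 Mb held 7 gained and 5 lost of 40 compared regions, chromosome 5 from 149 to 150 Mb 7 gained and 3 lost of 72, and a further window on chromosome 4 had 6 gained and 4 lost of 34. Peak numbers there did not separate the genotypes: from 115 to 116 Mb there were 38 and 41 in Smc3 del/+ and 43 and 37 in control. With lists of equal length the 3 windows held 7, 9 and 5 gained regions.

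With all peaks, every autosome lost more regions than it gained. Counts per autosome were not made with lists of equal length, where the excess of losses was smaller. The gained share ran from 2.59% on chromosome 15 to 4.52% on chromosome 18, and the lost share from 6.89% on chromosome 18 to 11.4% on chromosome 19. Chromosome 19, which carries Smc3 itself, had 222 lost and 59 gained of 1953 compared regions, 3.76 losses per gain, and chromosome 18 had 1.52. The lost share of chromosome 19 had an exact 95% interval of 9.99% to 12.9%, above the 8.47% of all autosomes, as did that of chromosome 17, at 10.3% (9.14% to 11.5%). The intervals of chromosomes 8 and 18 lay below it.

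**Figure D4:**
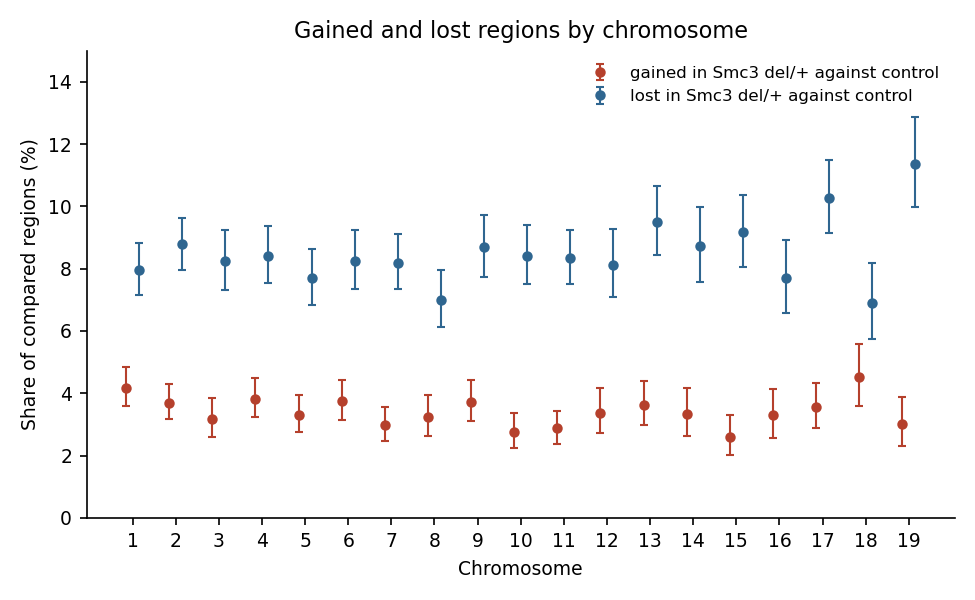
Share of compared regions (vertical axis, %) gained and lost in Smc3 del/+ against control on each autosome (horizontal axis), with exact 95% intervals for counting error as bars. With all peaks, the lost share is above the gained share on all 19 chromosomes and highest on chromosome 19 at 11.4%.

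Width was compared at regions open in both genotypes, where the call itself did not differ. Of the 39040 shared regions, 34668 had a single peak in each of the 4 libraries. Their median width was 440 and 436 bp in Smc3 del/+ and 409 and 410 bp in control, and the median of the differences of means was 34 bp (quartiles -54.5 and 242 bp). In 8404 regions (24.2%) both Smc3 del/+ peaks were wider than both control peaks, and in 4097 (11.8%) both were narrower, a ratio of 2.05. With 2 libraries per genotype, widths separate completely at many regions by chance alone, in either direction. The share expected by chance was not computed, so these counts do not mark single regions as changed. Wider calls outnumbered narrower ones on all 19 autosomes, by 1.81 times on chromosome 4 at the least and 2.50 times on chromosome 13 at the most.

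**Figure D5:**
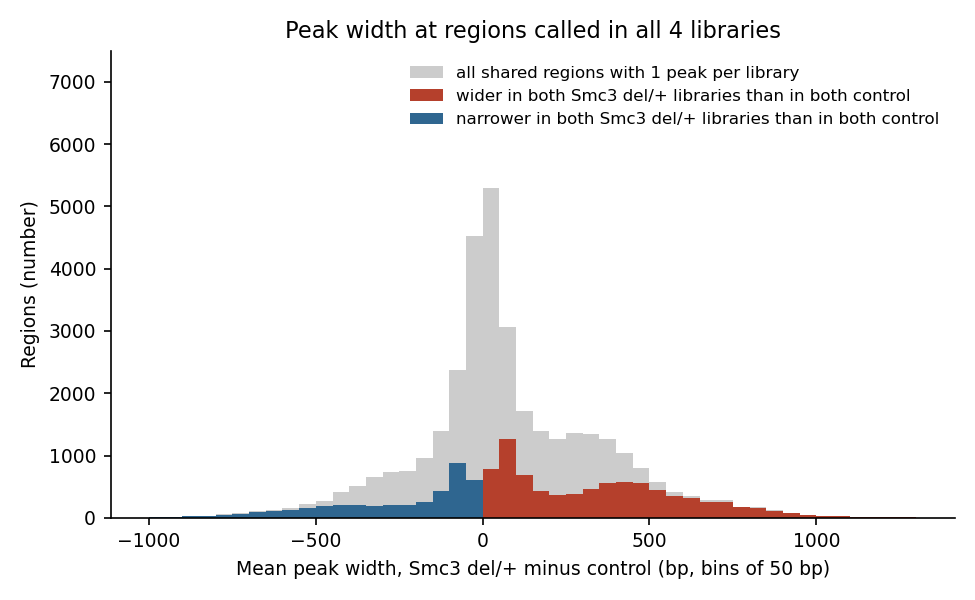
Number of shared regions with 1 peak per library (vertical axis) by mean peak width in Smc3 del/+ minus control (horizontal axis, bp, bins of 50 bp, cropped at -1000 and 1300 bp). Coloured bars lie in front of the grey ones and mark the 8404 regions wider in both Smc3 del/+ libraries and the 4097 narrower in both. The distribution has a shoulder near 300 to 400 bp on the wider side and a smaller one on the narrower side.

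At part of these regions the class call differed between the genotypes. At 1706 regions (4.92%) the peak was narrow in both control libraries and broad in both Smc3 del/+ libraries, and at 505 (1.46%) the reverse held, a ratio of 3.38. Broad peaks made up 30.2% and 29.4% of all 34668 regions in Smc3 del/+, against 19.5% and 20.8% in control. Class calls spread at random at these shares would also give such regions, with more changes to broad than to narrow. Whether the counts go beyond that was not tested, so they do not show a change at single sites. At the 1706 regions median widths were 1073 and 1078 bp in Smc3 del/+, against 400 and 393 bp in control. Both edges lay farther out, by a median of 368.5 bp on the low-coordinate side and 321.5 bp on the high side, but most regions were extended unevenly: the larger edge move had a median of 532.75 bp and the smaller 139.25 bp, and in 618 regions (36.2%) both edges moved at least 200 bp outward. The excess of changes to broad was smaller without a control library, where a broad peak in 1 control library suffices for a change to narrow. There were 2736 changes to broad and 2310 to narrow without control replicate 1, and 2838 and 2155 without control replicate 2. Without Smc3 del/+ replicate 1 there were 5717 and 1274, and without replicate 2 there were 5920 and 1307. There a broad peak in 1 Smc3 del/+ library suffices for a change to broad. The rule itself thus shifts the ratio, and these counts cannot show how far the excess rests on a single library. Where the peak was narrow in all 4 libraries, at 15265 regions, the median difference was 8.5 bp, with 20.8% wider and 14.2% narrower. Where it was broad in all 4, at 1337 regions, it was 25 bp, with 21.2% wider and 12.5% narrower.

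Class calls were themselves unstable between replicates. The 2 libraries of a genotype put a region in different classes at 11218 regions (32.4%) in Smc3 del/+ and 7856 (22.7%) in control, and the absolute width difference between them had a median of 148 bp in Smc3 del/+ and 88 bp in control. Signed differences between replicates had a median of 2 bp in Smc3 del/+ and -1 bp in control. The median difference between genotypes was 34 bp with lists of equal length, 34.5 bp with the upper 50% of each list and 29.5 bp at regions with a score of 1 in all 4 libraries, where 3094 were wider and 1253 narrower. It was 19.5 and 22 bp without Smc3 del/+ replicate 1 and 2, and 41.5 and 44.5 bp without control replicate 1 and 2. By the free-text descriptions, which by title set Flt3-ITD against control, it was 23 bp, so wider peaks were not particular to Smc3 del/+.

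The widest differences reached well over 1 kb. At chr10:88914703-88917413 the peak was 2050 and 2651 bp wide in Smc3 del/+ and 502 and 305 bp in control. At chr7:97277014-97279691 it was 2400 and 2192 bp in Smc3 del/+ and 371 and 393 bp in control, and in the libraries with Flt3-ITD it stayed between 321 and 486 bp. The region at chr2:32391800-32393975 had peaks of 2176 and 1984 bp in Smc3 del/+ and 371 and 403 bp in control. That region was also broad in 3 of the 4 libraries with Flt3-ITD, at 1646 and 1014 bp in Smc3-deleted Flt3-ITD and 1669 and 438 bp in Flt3-ITD.

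In the other direction, chr8:80057728-80059790 had peaks of 180 and 406 bp in Smc3 del/+ and 2051 and 2048 bp in control. At chr13:117811844-117813647 they were 360 and 168 bp in Smc3 del/+ and 1674 and 1707 bp in control, and Flt3-ITD libraries had broad peaks of 1438 and 1782 bp there, as did 1 Smc3-deleted Flt3-ITD library with 1340 bp. The region at chr9:103132095-103133820 had peaks of 668 and 165 bp in Smc3 del/+, 1726 and 1663 bp in control, and 1451 to 1708 bp in all 4 libraries with Flt3-ITD. At this last region Smc3 del/+ was thus the only genotype without a broad peak.

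Shared regions were seldom split differently. Both Smc3 del/+ libraries had 2 or more peaks and both control libraries 1 at 160 regions (0.41%), and the reverse held at 210 (0.538%). With lists of equal length the counts were 169 and 150, so their order turned.

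The libraries with Flt3-ITD give a second comparison for Smc3 deletion that shares no library with the first, Smc3-deleted Flt3-ITD against Flt3-ITD. Flt3-ITD is an activating duplication in a receptor tyrosine kinase of blood progenitors, found in acute myeloid leukemia. The labels of the combined genotype give it as Smc3 fl/del in one place and as heterozygous in another, and which holds was not settled. Smc3-deleted Flt3-ITD libraries called 44.5% ± 0.604 of the gained regions and Flt3-ITD libraries 35.6% ± 1.46 (SD, n = 2 each). The shares of lost regions called were 64.1% for Smc3-deleted Flt3-ITD libraries and 53.9% for Flt3-ITD libraries. Of all 58385 compared regions, Smc3-deleted Flt3-ITD libraries called 84.7% ± 0.369 and Flt3-ITD libraries 80.7% ± 1.08. All 4 of these libraries called 259 of the gained regions (13.0%) and 1334 of the lost ones (27.0%), and none called 629 (31.6%) and 692 (14.0%).

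By the same rule, 151 of the 1991 gained regions (7.58%) were gained in Smc3-deleted Flt3-ITD against Flt3-ITD and 57 (2.86%) lost, beside 2.95% and 1.45% of all compared regions. Among the 4944 lost regions, 402 (8.13%) were gained there and 188 (3.80%) lost. In both sets the share changed was above that of all compared regions, which include the shared ones with 1.18% gained and 0.722% lost. Gains were more numerous in each, but so they were over all compared regions, so this direction is not particular to the gained or the lost regions. With all 8 lists cut to equal length, losses were more numerous in each: 3.40% gained and 5.48% lost among gained regions, and 3.97% and 7.64% among lost ones. The shares over all compared regions were not computed at that length, so this direction cannot be set against a background.

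At the 6617 regions that were wider in Smc3 del/+ and had a single peak in all 8 libraries, the median difference was -30 bp in Smc3-deleted Flt3-ITD against Flt3-ITD, with 11.6% wider and 24.7% narrower. Over all 26682 such regions it was -25.5 bp, with 12.3% wider and 23.4% narrower, so the set was near the background. At the 1284 regions that were narrow in control and broad in Smc3 del/+, 25.4% and 24.4% of peaks were broad in the Smc3-deleted Flt3-ITD libraries, and 37.5% and 38.2% in the Flt3-ITD libraries, against 17.2%, 17.6%, 25.3% and 25.5% over all regions in the same order. At the 352 regions with the reverse change the shares were higher still, at 39.5%, 36.9%, 50% and 50.9%. A broad share above that of all regions is thus not particular to the regions that became broad.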

How the data were processed

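ATAC-seq peak lists of 8 libraries were used, 2 per genotype, 1 list per library. Per the submitters' processing notes, reads were aligned with Bowtie to mm9. For the peak caller, its settings, the transposase offset and duplicates the sources used here give nothing. The lists have 6 columns and no header. The deposited score, in column 5, is the authors' value per peak between 0.99 and 1, of unknown meaning, and only ranked or filtered peaks within a list. Start and end, deposited in bp, gave position and width, printed from 1. Libraries were grouped by title.

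Repeated intervals, 0.25% to 0.336% of the autosomal peaks in the 4 lists compared, were counted once. Peaks were merged on an overlap of at least 1 bp. A width class split at 700 bp was added after the widths were seen. Lists were cut to equal length by score, then width. Named regions were the 10 gained and 10 lost with the highest mean score percentile, ties by width, the 10 with the largest non-overlapping width difference in each direction, and the 3 windows of 1 Mb with the most gains and losses, with none named on chromosome 18. The text prints a part of them. Members and lists were chosen with earlier results of these data known.

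The levels per library were compared by exact permutation tests, and the rest by counts. The same steps were run on simulated lists as a check. Gene lists and motifs needed an mm9 annotation and were not analysed here. Tables were handled with pandas 2.3.3 and numpy 2.4.6 in Python 3.11.15, tests run with scipy 1.17.1, and figures drawn with matplotlib 3.10.9.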

Additional observations from a re-analysis of the deposited data

Results flagged for a closer look

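The difference that goes with Smc3 deletion ran in opposite directions with and without Flt3-ITD for both peak number and peak width on the autosomes. Peaks were 14886.5 more in Smc3-deleted Flt3-ITD than in Flt3-ITD and the mean differed by -6723 in Smc3 del/+ against control, a difference of 21609.5 between these effects (exact two-sided permutation p = 0.0571 over 70 assignments of 8 libraries, adjusted over 3 measures 0.0857). Median width differed by -18 bp in Smc3-deleted Flt3-ITD against Flt3-ITD and by 24.5 bp in Smc3 del/+ against control, a difference of -42.5 bp (exact permutation p = 0.0286, the smallest these assignments can give, adjusted 0.0857). In each of the 4 within-background comparisons, both libraries of one genotype lay on the same side of both libraries of the other. Neither difference passed after adjustment. The assignments moved all 8 libraries freely between genotypes, so these p-values do not isolate the difference between the effects from other differences between genotypes. For bases covered the difference was 4.12 Mb (exact permutation p = 0.286).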

How the results depend on the processing

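Restricting or loosening calls moved counts. The upper 50% of lists by score gave 1273 gained and 2917 lost (gained share 30.4%), a score of 1 gave 441 and 2829 (13.5%), counting a peak within 1 kb as a call left 1163 gained (24.4%), unmerged peaks with 50% cover gave 5948 gained (46.5%), merging within 500 bp a gained share of 25.3%, equal list length 45.7% and the free-text descriptions 37.5%. Without 1 library, gained ran from 3720 to 8212, lost from 9003 to 15342 and the gained share from 19.5% to 47.7%.

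The width difference kept its sign in all settings run. It was 23 bp by the free-text descriptions (15 bp for the median over all peaks and 5.34 points for the broad share), 29.5 bp at scores of 1, where 3094 were wider, 1253 narrower, 511 changed to broad and 94 to narrow, and 19.5 to 44.5 bp without 1 library. With the upper 50%, 5288 were wider, 2233 narrower, 1000 changed to broad and 215 to narrow. Without 1 library, 14285 to 16494 were wider, 9131 to 10781 narrower, 2736 to 5920 changed to broad and 1274 to 2310 to narrow. Differences per library then ran from -11428 to -2018 peaks, 23 to 26 bp in median width, 7.76 to 8.40 points in broad share and -2.01 to 2.70 Mb covered, which was negative without control replicate 2. With equal lists the difference in bases covered was 3.87 Mb. Split counts ran from 229 to 762 with more and 290 to 889 with fewer peaks in Smc3 del/+.

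Same-numbered replicates shared only a number (correlation of deviations 0.00989 for widths and -0.00693 for calls). With pairing by number as a replicate block the gained and lost counts were 1991 and 4944, as without it, and 11572 regions were wider and 6267 narrower.

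Distances of gained and lost regions had medians of 5822 and 5172 bp with regions shared by 3 of 4 libraries (22.9% and 16.6% within 1 kb, 7.58% and 2.55% beyond 100 kb). With the upper 50% they were 19006 and 11410 bp (6.36% and 6.99% within 1 kb, in the other order, and 16.3% and 8.60% beyond 100 kb). From centre to centre, 2.56% and 2.06% lay within 1 kb, and the lost median was 8025.5 bp. With equal lists 13.7% of gained lay within 1 kb. Without 1 library, medians ran from 5926 to 8079 and 5850 to 6750 bp, shares within 1 kb from 14.4% to 22.0% and 13.7% to 16.0%, and beyond 100 kb from 6.88% to 7.70% and 3.21% to 4.97%.

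With all 8 lists of equal length the call shares in Smc3-deleted Flt3-ITD minus Flt3-ITD turned to -4.23 points for gained (3.40% gained there, 5.48% lost) and -5.48 for lost regions (3.97% and 7.64%). With the upper 50%, it was 6.72 points for gained regions, and 4.77% of lost regions were lost there. Losses per gain in sparse and dense windows were 0.467 and 1.59 with equal lists, and 2.69 in dense windows with the upper 50%. The causes were not tested. Limits of 600 and 800 bp for broad peaks, scores of 1 and the upper 50% for widths, the upper 50% for distances and the window settings were chosen after seeing the data. Read depth is unknown for every library.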
